A study of Mus musculus with 12 samples.

Results

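Fc gamma receptors are the receptors through which a macrophage binds the constant part of IgG. Described here are the 4 mouse genes for such receptors (Fcgr1, Fcgr2b, Fcgr3 and Fcgr4), the gene of their shared signalling chain (Fcer1g) and that of the kinase it recruits (Syk). These 6 genes were taken by their Ensembl identifiers from a table of 54532 genes, and all 6 were among the 15338 genes with enough counts to be tested. RNA was sequenced from cultured mouse macrophages differentiated from bone marrow cells (BMDMs), in 12 libraries of 4 groups with 3 libraries each. The groups were untreated cells of control mice (WT), untreated cells of mice carrying the Gpnmb allele R150X (R150X), WT cells given oxidised low-density lipoprotein (OxLDL) and R150X cells given OxLDL. The series asked how GPNMB, a membrane glycoprotein abundant in lipid-laden macrophages, affects foam cell formation. According to the labels both genotypes had the same strain background, a cross of DBA/2 with C57BL/6 that was backcrossed with C57BL/6. The labels name no age, sex, dose, duration or batch, and do not say whether the 3 libraries of a group came from separate mice or cultures, so p-values measure only the spread between libraries, which may be technical.

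An IgG-coated particle that clusters activating Fc gamma receptors brings Src-family kinases to the tyrosine motif (ITAM) of the shared gamma chain, where Syk docks and drives actin remodelling and engulfment. The receptors FcγRI, FcγRIII and FcγRIV, encoded by Fcgr1, Fcgr3 and Fcgr4, need the gamma chain for signalling and for stable surface expression. FcγRIIb, encoded by Fcgr2b, carries an inhibitory motif (ITIM) of its own, recruits the lipid phosphatase SHIP1 and dampens signals of the activating receptors. In macrophages the balance of activating to inhibitory receptors sets the threshold at which immune complexes trigger a response, and interferon-gamma is a known inducer of Fcgr1 and Fcgr4.

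The libraries held 14838969 to 18222868 counts, and levels are given as CPM, which divides counts by a library total adjusted by the trimmed mean of M-values (TMM). Gpnmb checked the labels: it stood at 5305 to 5374 CPM in untreated WT libraries, 363 to 411 CPM in untreated R150X, 12355 to 12615 CPM in OxLDL-treated WT and 691 to 724 CPM in OxLDL-treated R150X. The cell type label was met by the 10 macrophage markers, none of them at 0, which summed to 20419 to 20700 CPM in untreated WT, 22408 to 23389 in untreated R150X, 24499 to 26073 in OxLDL-treated WT and 20824 to 22186 in OxLDL-treated R150X. Lyz2 held most of each sum, with 13888 to 14083 CPM in untreated WT and 19177 to 20721 in OxLDL-treated WT. The sums do not show that single markers moved apart. With OxLDL in WT 4 of the 10 rose and 3 fell, and Adgre1 went from 2679 to 2752 CPM down to 816 to 848 CPM. Markers of other cells also moved with the groups. The 12 neutrophil markers summed to 520 to 549 CPM in untreated WT, 283 to 292 in untreated R150X, 231 to 247 in OxLDL-treated WT and 112 to 116 in OxLDL-treated R150X, and none was at 0 in a whole group. The 8 fibroblast and stromal markers summed to 12465 to 12553, 7900 to 7953, 5463 to 6100 and 4683 to 4942 CPM in the same order, also with none at 0. The sums of the 6 platelet markers were 9.18 to 10.02, 21.6 to 24.3, 34.8 to 42.8 and 15.9 to 16.6 CPM, and those of the 6 adipocyte markers, of which 1 was at 0 in each group, 0.738 to 0.970, 3.13 to 4.29, 2.36 to 4.15 and 38.3 to 43.9 CPM. The 8 B cell markers summed to 57.6 to 73.4, the 8 dendritic cell markers to 10.5 to 17.3, the 9 mast cell and basophil markers to 10.4 to 23.0 and the 10 NK and T cell markers to 2.23 to 4.29 CPM over all libraries. In these sums too single markers parted. Collagen genes held most of each fibroblast sum, Col1a1 alone 5911 to 5997 CPM in untreated WT. Of the 8 fibroblast markers 1 rose and 6 fell in untreated R150X, and 0 rose and 5 fell with OxLDL in WT. Of 10 neutrophil markers tested, 0 rose and 9 fell in untreated R150X, and 2 rose and 5 fell with OxLDL in WT. Neutrophils, mast cells, B cells and NK cells are known to express some of the 6 genes, and the part of these cells in the results was not tested. Xist, expressed from the inactive X chromosome, stood at 228 to 349 CPM in R150X libraries and at 0 to 2.75 CPM in WT libraries. The Y-linked gene Ddx3y was present in all libraries, at 51.3 to 60.1 CPM in R150X and at 83.6 to 100.4 CPM in WT, and Eif2s3y, Kdm5d and Uty were likewise present in R150X and lower there without overlap, so genotype and the sex makeup of the cultures cannot be told apart. Replicate 1 of untreated R150X differed from replicates 2 and 3 by a chi-square over genes of 9.61 and 10.5 for each degree of freedom, against 2.37 to 4.87 for the other replicate pairs, and values without it are given where they matter.

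The genes lie on 3 chromosomes of GRCm38. Fcgr2b (ENSMUSG00000026656, chr1:170958617-170976547, minus strand), Fcgr4 (ENSMUSG00000059089, chr1:171018920-171029761, plus strand), Fcgr3 (ENSMUSG00000059498, chr1:171051174-171064935, minus strand) and Fcer1g (ENSMUSG00000058715, chr1:171229572-171234365, minus strand) are neighbours on chromosome 1. Fcgr1 (ENSMUSG00000015947) lies at chr3:96282909-96293969 on the minus strand and Syk (ENSMUSG00000021457) at chr13:52583173-52648792 on the plus strand. The longest transcripts of Fcgr2b and Fcgr3 aligned over 509 bases with 96.5% identity, and their longest identical run had 129 bases. It spans the junction of exons 3 and 4 in both, which encode extracellular immunoglobulin domains, and lies wholly in the coding sequence. The run is shown because a read that falls inside it cannot be assigned to the inhibitory or the activating receptor:
Fcgr2b and Fcgr3, shared run: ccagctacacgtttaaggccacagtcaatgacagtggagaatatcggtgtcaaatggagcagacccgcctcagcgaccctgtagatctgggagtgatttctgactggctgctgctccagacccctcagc

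Of the windows of 50 bases along the Fcgr3 transcript, 12.8% also occurred in another gene, in every case Fcgr2b, and of windows of 100 bases 3.53% did. The Fcgr2b transcript shared 12.5% of its 50-base windows, with Fcgr3 and with transcripts of many other genes. For Fcgr1, Fcgr4, Fcer1g and Syk no window of either length was shared. How the authors' counting treated shared reads is not given in the sources used here, and Fcgr2b and Fcgr3 are therefore also given below as 1 summed feature. Fcgr2b overlaps the antisense gene Gm38204 over 155 bases of exon, but that gene had at most 0.330 CPM in any library.

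The stretches before the start sites of 3 activating receptor genes follow, from RefSeq on GRCm38.p6, because these receptors responded to OxLDL in opposite directions. Both strands were searched for the interferon-gamma activated site (GAS, TTCNNNGAA), the core of the PU.1 site (GAGGAA, or TTCCTC on the other strand), the AP-1 site (TGANTCA) and a pair of interferon-stimulated half-sites (TTTC, any 2 bases and TTTC again), and matches are in capitals. The 250 bases before Fcgr1 (chr3:96293970-96294219, minus strand) and Fcgr4 (chr1:171018676-171018925, plus strand) and 100 bases before Fcgr3 (chr1:171059404-171059503, minus strand) read:
Fcgr1: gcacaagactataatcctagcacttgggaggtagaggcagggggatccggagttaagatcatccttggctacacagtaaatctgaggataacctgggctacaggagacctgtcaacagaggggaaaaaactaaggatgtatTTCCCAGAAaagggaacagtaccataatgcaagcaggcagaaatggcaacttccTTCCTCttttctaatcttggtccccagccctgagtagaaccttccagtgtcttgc
Fcgr4: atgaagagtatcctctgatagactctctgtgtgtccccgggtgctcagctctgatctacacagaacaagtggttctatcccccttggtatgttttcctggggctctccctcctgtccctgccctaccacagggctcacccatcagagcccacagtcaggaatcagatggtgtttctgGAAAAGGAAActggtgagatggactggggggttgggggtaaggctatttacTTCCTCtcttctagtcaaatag
Fcgr3: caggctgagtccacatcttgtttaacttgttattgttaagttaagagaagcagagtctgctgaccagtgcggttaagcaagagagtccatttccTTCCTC

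Fcgr1 held the GAS match at 109 to 101 bases before its start and a PU.1 core at 55 to 50 bases. Fcgr4 held the paired interferon half-site match at 73 to 64 bases and a PU.1 core at 22 to 17 bases, and Fcgr3 held a PU.1 core at 6 to 1 bases before its first RefSeq start. That RefSeq start lies inside the Fcgr3 span given above, which on the minus strand begins at chr1:171064935. In the 250 bases before Fcgr2b, Fcer1g and the first RefSeq start of Syk none of the 4 motifs was found. A PU.1 core lay at 9 to 4 bases before the second RefSeq start of Syk. Of 32526 promoter windows of 250 bases in the RefSeq table, 7.04% held the GAS letters, 23.4% the PU.1 core, 6.73% the AP-1 letters and 2.98% the paired half-site, so each match is a description of these letters only.

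Per length of exon, the chain was the most abundant message and the inhibitory receptor the least. In untreated WT cells the order was Fcer1g at 637 ± 22.7 CPM per kb of exon (SD, n = 3), Fcgr3 at 189 ± 5.26, Fcgr4 at 102 ± 4.18, Fcgr1 at 92.3 ± 0.745, Syk at 52.5 ± 0.833 and Fcgr2b at 44.3 ± 0.739. No neighbours in this order overlapped between their libraries. With the longest transcript as the length, Syk stood at 91.7 ± 1.46 CPM per kb and overlapped Fcgr1, and Fcgr2b stood at 72.3 ± 1.20. In OxLDL-treated R150X cells Fcer1g at 502 ± 18.5 and Fcgr3 at 312 ± 8.54 CPM per kb of exon still led, while Fcgr1 fell to the last place at 25.9 ± 1.22, after Fcgr2b at 30.4 ± 0.323.

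After OxLDL the RNA of every member except Fcgr3 was lower in both genotypes, and that of Fcgr3 was higher. The labels do not say whether treated and untreated cells came from the same mice or were processed together. Such differences cannot be told apart from an effect of OxLDL. In WT cells all 6 members passed the test (edgeR quasi-likelihood test, Benjamini-Hochberg adjusted p under 0.05), 1 higher and 5 lower, where 45.8% of all tested genes passed, 22.7% higher and 23.1% lower. In R150X cells the same split of 1 higher and 5 lower was found, against 39.0% of all tested genes, 18.4% higher and 20.6% lower. In both genotypes the treated and untreated libraries did not overlap for any of the 6, as for 55.9% of tested genes in WT and 46.4% in R150X. Fewer members passed between genotypes. In untreated cells 5 of 6 passed, with Fcgr3, Fcer1g and Syk higher and Fcgr1 and Fcgr2b lower in R150X, against 33.0% of tested genes (18.1% higher, 14.8% lower), and the same 5 did not overlap, as for 46.1% of tested genes. With OxLDL 3 of 6 passed, with Fcer1g higher and Fcgr1 and Fcgr2b lower in R150X, against 13.0% of tested genes (6.10% higher, 6.92% lower), and these 3 did not overlap, as for 30.0%. The interaction, which is how much the response to OxLDL in R150X cells exceeded that in WT cells, passed for 3 of 6 members, all lower, against 8.32% of tested genes (3.13% higher, 5.19% lower). The comparisons share groups and are not independent of each other, and bulk RNA does not tell fewer cells of a type from less RNA per cell.

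**Figure D1:**
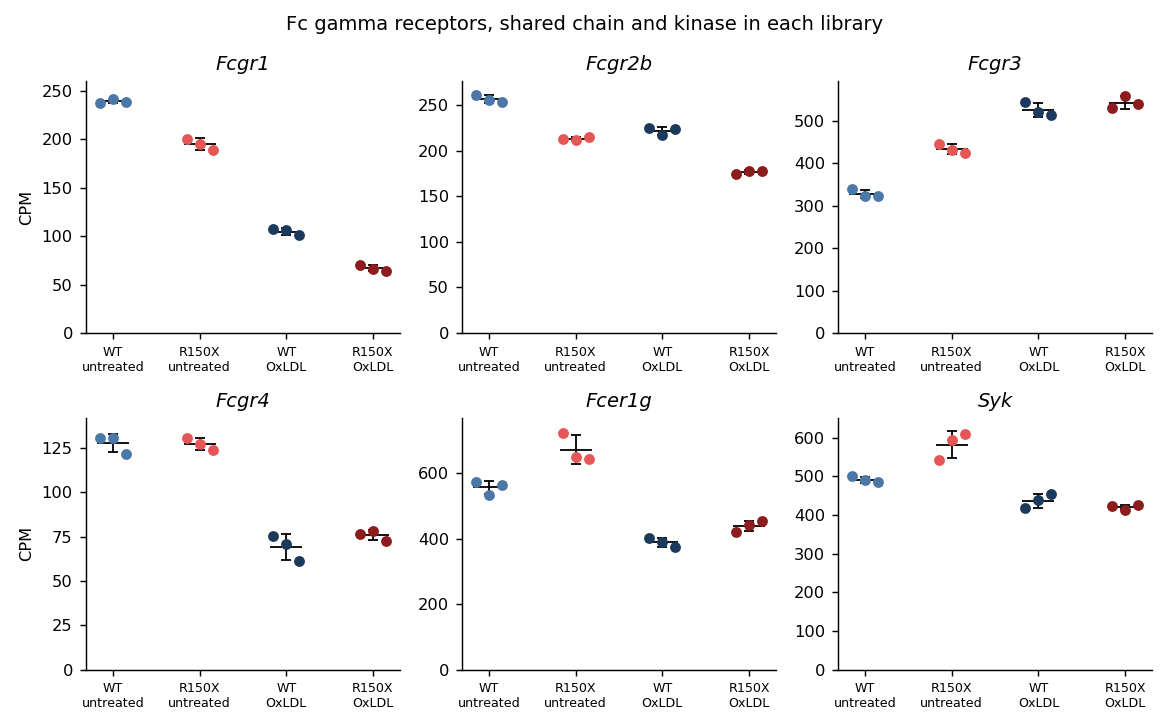
Level of each of the 6 genes (vertical axis, TMM-scaled CPM, from 0) in each of the 12 libraries (points), by group (horizontal axis); the bar is the mean and the whiskers the SD of 3 libraries. Within each genotype Fcgr3 was higher and the other 5 genes were lower after OxLDL, and the 4 groups of Fcgr1 did not overlap.

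The largest change was that of Fcgr1, which encodes the high-affinity receptor for IgG. It stood at 237, 241 and 238 CPM in the 3 untreated WT libraries, at 201, 196 and 189 CPM in untreated R150X, at 107, 106 and 101 CPM in OxLDL-treated WT and at 70.6, 66.3 and 64.5 CPM in OxLDL-treated R150X. The 4 groups did not overlap, and the order from high to low was untreated WT, untreated R150X, treated WT and treated R150X. The log2 fold change of Fcgr1 with OxLDL was -1.19 (SE 0.0488, adjusted p = 1.65e-14) in WT, a ratio of 0.437, and -1.54 (SE 0.0501, adjusted p = 3.57e-16) in R150X, a ratio of 0.344. R150X was lower than WT, with a difference of -0.29 (SE 0.0476, adjusted p = 7.56e-05) without and of -0.64 (SE 0.0513, adjusted p = 1.19e-08) with OxLDL. The fall with OxLDL was larger in R150X, with an interaction of -0.35 (SE 0.0699, adjusted p = 0.00297).

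Fcgr4, which encodes a receptor of intermediate affinity for IgG2 subclasses, also fell with OxLDL but did not pass between genotypes. Its level was 130.9, 130.9 and 122 CPM in untreated WT, 130.4, 127 and 124 CPM in untreated R150X, 75.6, 70.9 and 61.4 CPM in OxLDL-treated WT and 76.8, 78.2 and 72.9 CPM in OxLDL-treated R150X. The genotypes overlapped under both conditions and the treatments under neither. The log2 fold change with OxLDL was -0.88 (SE 0.0637, adjusted p = 2.06e-10) in WT and -0.74 (SE 0.0632, adjusted p = 3.67e-09) in R150X. Between untreated genotypes the difference was -0.0072 on the log2 scale, with a 95% interval from -0.14 to 0.12, and with OxLDL it was 0.13 (interval -0.0048 to 0.27, adjusted p = 0.217). The interaction was 0.14 (interval -0.048 to 0.33, adjusted p = 0.392).

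Fcgr3, which encodes a low-affinity activating receptor for immune complexes, was the member that rose with OxLDL. It stood at 338, 322 and 323 CPM in untreated WT, 445, 430.3 and 424 CPM in untreated R150X, 544, 521 and 512 CPM in OxLDL-treated WT and 529, 558 and 539 CPM in OxLDL-treated R150X. Untreated R150X lay between untreated WT and both treated groups, and the 2 treated groups overlapped. The untreated genotypes differed by 0.40 on the log2 scale (SE 0.0439, adjusted p = 5.34e-07), or 32.2% more in R150X, while with OxLDL the difference was 0.045 (interval -0.046 to 0.14, adjusted p = 0.576). Fcgr3 rose with OxLDL by 0.68 (SE 0.0439, adjusted p = 3.16e-11) in WT and by 0.32 (SE 0.0438, adjusted p = 3.71e-06) in R150X. The rise was smaller in R150X, with an interaction of -0.36 (SE 0.0620, adjusted p = 0.000688).

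Fcgr2b, the inhibitory receptor gene, was lower in R150X and lower after OxLDL. Its level was 261, 255 and 253 CPM in untreated WT, 213, 212 and 215 CPM in untreated R150X, 225, 217 and 223 CPM in OxLDL-treated WT and 174, 177 and 178 CPM in OxLDL-treated R150X. No 2 groups overlapped. R150X differed from WT by -0.27 (SE 0.0429, adjusted p = 7.01e-05) without and by -0.33 (SE 0.0434, adjusted p = 1.25e-05) with OxLDL on the log2 scale. The OxLDL response was -0.21 (SE 0.0430, adjusted p = 0.000400) in WT and -0.27 (SE 0.0433, adjusted p = 2.84e-05) in R150X, and the interaction of -0.064 (interval -0.19 to 0.063) did not pass (adjusted p = 0.593).

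Because of the shared sequence, the counts of Fcgr2b and Fcgr3 were also summed, an alternative added after the overlap had been measured. The summed feature rose by 0.15 (SE 0.0403, adjusted p = 0.00828) in untreated R150X against WT, by 0.36 (adjusted p = 2.47e-07) with OxLDL in WT and by 0.15 (adjusted p = 0.00454) with OxLDL in R150X. With OxLDL the genotypes differed by -0.056 (adjusted p = 0.424), and the interaction was -0.20 (adjusted p = 0.0307). How reads of the 129-base run were split between the genes was not tested.

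Fcer1g encodes the gamma chain that the activating receptors share. It stood at 571, 534 and 564 CPM in untreated WT, 722, 649 and 642 CPM in untreated R150X, 402, 389.9 and 373 CPM in OxLDL-treated WT and 421, 442 and 453 CPM in OxLDL-treated R150X. No groups overlapped, and untreated R150X replicate 1 was the highest library. Untreated R150X cells held more Fcer1g than WT by 0.27 on the log2 scale (SE 0.0507, adjusted p = 0.000362), and by 0.20 (adjusted p = 0.00087) without that library. Fcer1g fell with OxLDL, with log2 fold changes of -0.52 (SE 0.0511, adjusted p = 2.93e-08) in WT and -0.61 (SE 0.0509, adjusted p = 2.62e-09) in R150X. The interaction of -0.094 (interval -0.24 to 0.056) did not pass (adjusted p = 0.487). With OxLDL, R150X was higher than WT by 0.18 (SE 0.0512, adjusted p = 0.0254). This last call rested on single libraries, since the adjusted p was 0.0746 without replicate 2 and 0.102 without replicate 3 of OxLDL-treated WT, and 0.0888 without replicate 2 and 0.114 without replicate 3 of OxLDL-treated R150X.

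Syk, the kinase that docks on the phosphorylated chain, rose in untreated R150X cells and fell with OxLDL. Its level was 499.8, 491 and 484 CPM in untreated WT, 542, 593 and 609 CPM in untreated R150X, 419, 438 and 454 CPM in OxLDL-treated WT and 422, 414 and 425 CPM in OxLDL-treated R150X. Untreated R150X was the highest group without overlap, and the treated genotypes overlapped. The untreated genotypes differed by 0.24 on the log2 scale (SE 0.0475, adjusted p = 0.000536), and by 0.28 (adjusted p = 5.71e-06) without R150X replicate 1, the lowest of its group. With OxLDL the difference was -0.055 (interval -0.15 to 0.044, adjusted p = 0.522). Syk fell with OxLDL, with log2 fold changes of -0.17 (SE 0.0476, adjusted p = 0.00578) in WT and -0.47 (SE 0.0476, adjusted p = 6.14e-08) in R150X. The interaction of -0.30 (SE 0.0673, adjusted p = 0.00724) was -0.21 (adjusted p = 0.0687) when libraries were scaled by their totals alone, and no longer passed.

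**Figure D2:**
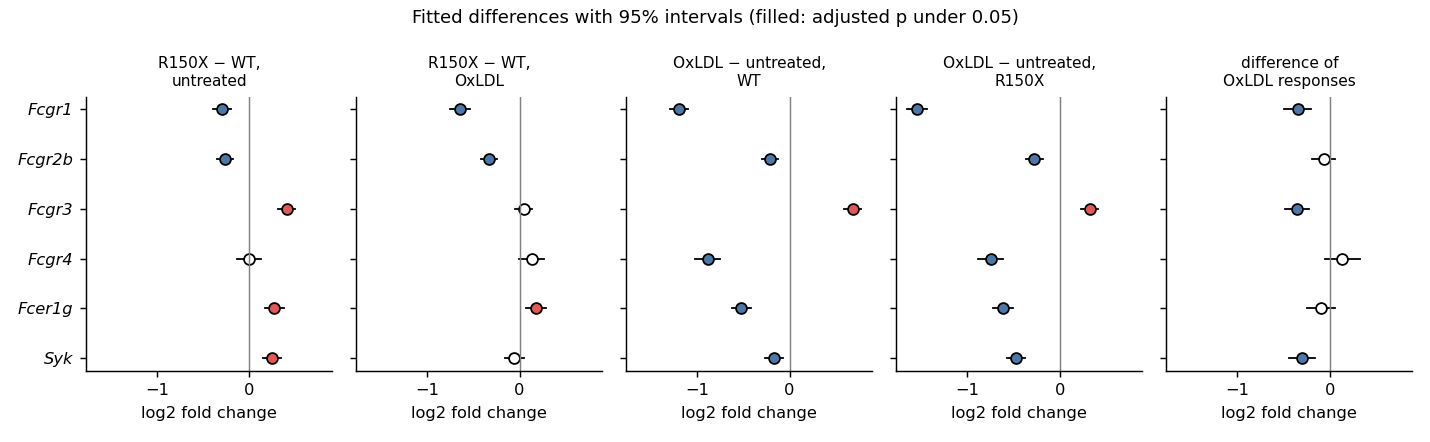
Fitted log2 fold change (horizontal axis) of each gene (vertical axis) in the 5 comparisons, with 95% intervals as lines; points are filled red or blue where the gene rose or fell at an adjusted p under 0.05 and open where it did not pass. Fcgr3 stands apart from the other 5 genes in both OxLDL comparisons, and the interaction passed for Fcgr1, Fcgr3 and Syk.

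The makeup of the receptor messages moved towards Fcgr3. Of the summed level of the 4 receptor genes per kb of exon, Fcgr3 made up 44.2% ± 0.674 (SD, n = 3) in untreated WT, 53.9% ± 0.158 in untreated R150X, 69.4% ± 0.580 in OxLDL-treated WT and 72.8% ± 0.661 in OxLDL-treated R150X. The share of Fcgr1 went from 21.6% ± 0.504 to 16.3% ± 0.139, 9.25% ± 0.158 and 6.04% ± 0.346 in the same order. Fcgr4 held 23.8% ± 0.642 and 21.9% ± 0.111 in untreated WT and R150X, and 12.6% ± 0.892 and 14.1% ± 0.382 after OxLDL. The inhibitory Fcgr2b held 10.4% ± 0.0566 in untreated WT, 7.96% ± 0.227 in untreated R150X, 8.78% ± 0.321 in treated WT and 7.10% ± 0.137 in treated R150X. These shares depend on the gene lengths used and are descriptions without a test.

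**Figure D3:**
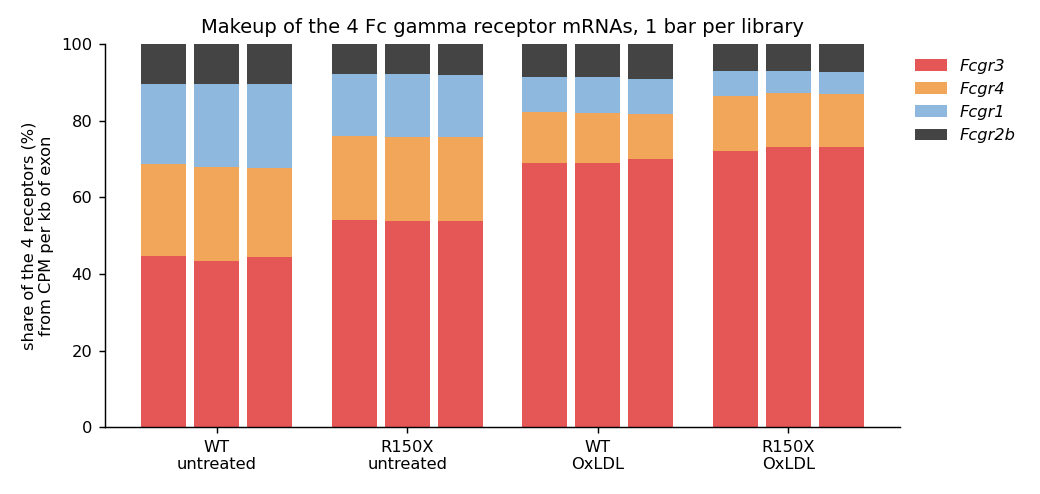
Share of each receptor gene (vertical axis, % of the summed CPM per kb of exon of the 4 genes) in each of the 12 libraries (1 bar each), by group. Fcgr3 takes 43.4% to 44.7% in untreated WT libraries and 72.0% to 73.2% in OxLDL-treated R150X libraries.

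The ratio of the summed activating receptors (Fcgr1, Fcgr3 and Fcgr4, per kb of exon) to Fcgr2b was 8.59 to 8.69 in untreated WT libraries, 11.2 to 11.9 in untreated R150X, 9.93 to 10.7 in OxLDL-treated WT and 12.8 to 13.4 in OxLDL-treated R150X. The 4 groups did not overlap. With the longest transcript as the length the group means were 6.04, 8.28, 7.76 and 9.83, in the same order of groups. The single receptors differed from the sum: Fcgr3 over Fcgr2b rose from a mean of 4.26 in untreated WT to 10.3 in treated R150X, while Fcgr4 over Fcgr2b was 2.30 and 2.75 in untreated WT and R150X and 1.44 and 1.99 after OxLDL. Fcgr1 over Fcgr2b was not higher in R150X, with means of 2.08 and 2.05 in untreated WT and R150X and 1.05 and 0.852 after OxLDL. Set against the chain they signal through, the activating receptors were at 0.581 to 0.626 of Fcer1g in untreated WT, 0.530 to 0.572 in untreated R150X, 0.890 to 0.902 in treated WT and 0.759 to 0.816 in treated R150X.

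The genes around the receptors and Syk were read from 8 lists of 122 genes in all, of which 111 could be tested. The lists were chosen with earlier results of these data known, and counts pooled over the 8 lists were added after the data had been seen. Their shares beside those of all tested genes are therefore descriptions only. In untreated cells the 8 lists together had 50 genes higher and 11 lower in R150X (45.0% and 9.91%), against 18.1% and 14.8% of all tested genes, with a median log2 fold change of 0.12 against 0.010. Macrophage markers moved the same way, with 6 of 10 higher and 0 lower in untreated R150X and a median of 0.18, and their part in the counts of these lists was not tested. Scaled by library totals alone the lists had 39 higher and 15 lower, and of all calls 36.1% were higher rather than 55.0%. The list of ITAM adaptors and their other receptors had 10 of 14 higher and 1 lower (2 lower without R150X replicate 3), with a median of 0.49. Tyrobp, which encodes DAP12, the other ITAM adaptor of macrophages, was at 302 to 326 CPM in the WT libraries and at 449.6 to 556 CPM in R150X, and rose by 0.65 on the log2 scale (SE 0.0683, adjusted p = 3.31e-07). Clec7a (Dectin-1, a receptor for fungal glucan that uses Syk) rose by 0.97, and Clec4e (Mincle) and Clec4d (MCL), C-type lectins that pair with the gamma chain, rose by 0.68 and 0.56.

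The actin machinery of the phagocytic cup had 12 of 20 genes higher and 1 lower in untreated R150X, with a median of 0.15. Myo1f, a myosin of macrophages, changed by 0.43, the GTPase gene Rac2 by 0.26, and Actr3 of the Arp2/3 complex by 0.24. Scaled by library totals alone, 7 actin genes were higher and 2 lower. Among the adaptors, lipases and exchange factors that act after Syk, 8 of 21 were higher and 2 lower, with a median of 0.031. The NF-kB adaptor Malt1 changed by 0.83 and the Syk substrate Blnk by 0.55. Of the 12 Src-family and accessory kinases tested 4 were higher, among them Prkcd at 0.42, Tec at 0.47 and Btk at 0.27. The single kinase gene counted lower there was not called without any 1 of the 3 WT libraries or without R150X replicate 2 or 3. Lyn (-0.021) and Fgr (-0.057) did not pass.

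On the inhibitory side, 6 of 11 phosphatases and adaptors were higher in untreated R150X and 1 lower, with a median of 0.14. The one that fell was Inpp5d, the gene of SHIP1, which FcγRIIb recruits, from 283 ± 5.43 to 238 ± 14.3 CPM (log2 fold change -0.25, adjusted p = 0.000614), so it moved in the direction of Fcgr2b. Scaled by library totals alone, 2 of that list were lower. Ptpn6, the gene of SHP-1, rose by 0.22 and the Ras regulator Dok2 by 0.90. Among the 11 genes listed as ITIM receptors 4 rose and 2 fell, with a median of 0.12. The motif was not looked for in the mouse proteins of this list, Cd33 among them. Cd300a rose by 0.47 and Sirpa, the receptor for the signal CD47, by 0.33, while Cd33 fell by 0.58 on the log2 scale. Of the other Fc receptor and Fc receptor-like genes 0 of 7 rose and 3 fell, with a median of -0.45. Fcrls fell from 494 ± 8.98 to 393 ± 8.77 CPM and Fcrl5 from 39.9 ± 3.72 to 15.3 ± 0.981 CPM, while the neonatal Fc receptor gene Fcgrt was at 71.5 ± 2.80 and 71.8 ± 6.16 CPM and did not pass. Of 15 interferon-gamma response genes 6 rose and 0 fell, with a median of 0.11, and Irf1, a transcription factor of that response, rose by 0.52.

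With OxLDL in WT cells, 35 of the 111 genes rose and 48 fell (31.5% and 43.2%), against 22.7% and 23.1% of all tested genes, with a median of -0.077 against 0.014. Of the 10 macrophage markers 4 rose and 3 fell in WT and 4 rose and 6 fell in R150X. Scaled by library totals alone, which shifts the median of all genes by -0.11, 25 rose and 57 fell, and 31.6% of all calls were higher rather than 49.6%. In R150X cells 20 rose and 56 fell (18.02% and 50.5%), against 18.4% and 20.6% of all tested genes, with a median of -0.16 against 0.0039. Lyn, a Src-family kinase gene, stood at 301 to 311 CPM in untreated WT and at 175 to 184 CPM in treated WT, and at 299.7 to 303 CPM and 161 to 175 CPM in R150X. Lyn changed by -0.78 in WT and by -0.84 in R150X. Of the 12 kinase genes 3 rose and 6 fell in WT, with a median of -0.21, and 0 rose and 7 fell in R150X, with a median of -0.35. Without R150X replicate 1, 1 rose in R150X.

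Downstream of Syk, 7 of 21 genes rose and 7 fell in WT and 5 rose and 8 fell in R150X, with medians of -0.036 and -0.077. Vav1, an exchange factor for Rac, fell by 0.85 in WT and by 1.09 in R150X on the log2 scale, and Lcp2, the adaptor SLP-76, fell by 0.87 and by 1.09. Of the 20 actin genes 3 rose and 9 fell in WT and 1 rose and 12 fell in R150X, with medians of -0.063 and -0.21. Rac2 was at 698 ± 14.97 CPM in untreated WT and at 334 ± 7.79 CPM in treated WT, and at 833 ± 30.1 and 381 ± 12.6 CPM in R150X. Myo1f rose by 0.59 in WT.

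The adaptors parted with OxLDL. Tyrobp rose to 489 to 517 CPM in WT (log2 fold change 0.67, adjusted p = 5.28e-08) and to 524 to 632 CPM in R150X (0.23, adjusted p = 0.00974), while Fcer1g fell in both genotypes. In R150X the treated and untreated Tyrobp libraries overlapped, and the call was lost without untreated replicate 2 (adjusted p = 0.0719) or treated replicate 3 (0.0733). Of the 14 adaptor and receptor genes tested 10 rose and 4 fell in WT and 5 rose and 2 fell in R150X, with medians of 0.69 and 0.095. Trem2, a lipid receptor that signals through DAP12, rose by 1.03 in WT and by 0.68 in R150X, and the lectin gene Clec4n (Dectin-2) by 1.39 and 1.19. Clec4e fell from 209 to 221 CPM in untreated WT libraries to 3.55 to 4.95 CPM in treated WT, and from 338 to 354 CPM to 4.08 to 6.78 CPM in R150X, log2 fold changes of -5.66 and -6.00. The lectin and paired-receptor families hold close copies, and reads shared within them were not traced.

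**Figure D4:**
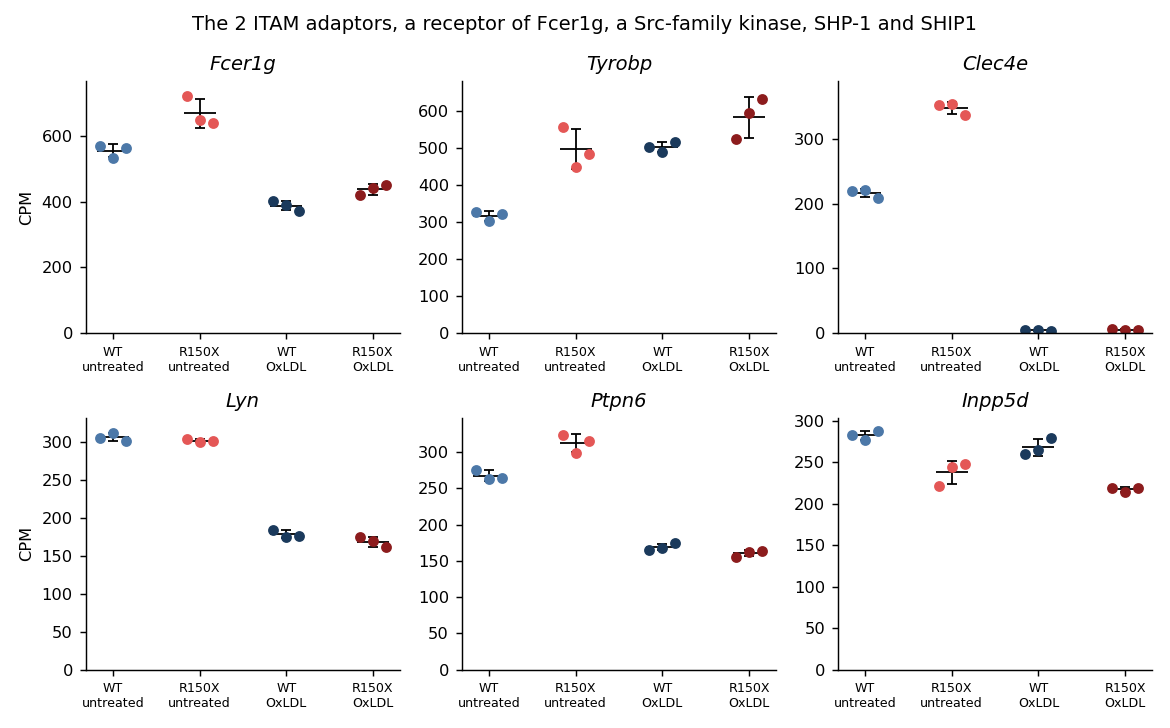
Level (vertical axis, TMM-scaled CPM, from 0) of Fcer1g, Tyrobp, Clec4e, Lyn, Ptpn6 and Inpp5d in each library (points) by group (horizontal axis), with the mean and SD of 3 libraries. After OxLDL the means of Fcer1g, Clec4e, Lyn and Ptpn6 were lower and that of Tyrobp higher in both genotypes, with overlapping Tyrobp libraries in R150X.

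Among the inhibitory genes, Ptpn6 fell by 0.66 with OxLDL in WT and by 0.96 in R150X on the log2 scale, and Inpp5d did not pass in WT (-0.077, adjusted p = 0.216) and fell by 0.13 (adjusted p = 0.0430) in R150X. That call was lost without replicate 2 or 3 of untreated R150X (adjusted p = 0.135 and 0.165) or any 1 of the treated R150X libraries (0.0773 to 0.131). Of the 11 phosphatases and adaptors 3 rose and 4 fell in WT, with a median of -0.077. Without WT replicate 1, or without WT replicate 2, 1 rose, and without replicate 2 of treated WT 2 fell. In R150X 0 rose and 6 fell, with a median of -0.13. Of the 11 genes listed as ITIM receptors 5 rose and 4 fell in WT and 5 rose and 5 fell in R150X, with medians of 0.18 and -0.014. Cd300a rose from 95.8 ± 1.59 to 317 ± 5.001 CPM in WT and Siglece, a sialic acid receptor, fell from 85.5 ± 1.40 to 1.70 ± 1.01 CPM. In R150X Cd300a went from 133 ± 0.872 to 352 ± 7.29 CPM and Siglece from 82.4 ± 2.69 to 1.502 ± 0.414 CPM.

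Interferon-gamma response genes mostly fell with OxLDL. Of 15 genes 2 rose and 10 fell in WT and 2 rose and 12 fell in R150X, with medians of -0.87 and -1.29. The chemokine gene Cxcl9 stood at 131 to 137 CPM in untreated WT and at no more than 0.0695 CPM in treated WT libraries, and the GTPase gene Gbp2 changed by -3.64 in WT and by -4.38 in R150X. Of the 7 other Fc receptor genes 2 rose and 4 fell in each genotype, with medians of -1.09 and -1.42. The count of genes that rose was 1 without WT replicate 2 in WT, and 1 in R150X without replicate 2 or 3 of untreated R150X or without replicate 3 of treated R150X. Fcrls fell by 1.48 and by 1.89 on the log2 scale and Fcrl5 went to 0 to 0.348 CPM, while Fcgrt rose by 0.21 in each genotype. The Fcgrt call was lost in WT without WT replicate 2 (adjusted p = 0.0555) or under library totals alone (0.215), and in R150X without untreated replicate 2 (0.0573) or 3 (0.0626) or treated replicate 3 (0.0506).

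Between the OxLDL-treated genotypes, 14 of the 111 genes were higher and 14 lower in R150X (12.6% each), against 6.10% and 6.92% of all tested genes, with a median of -0.0085 against 0.0020, and without replicate 2 of treated R150X 9 were lower. Of the macrophage markers 0 were higher and 5 of 10 lower. Fgr, a Src-family kinase gene, was at 93.0 to 104 CPM in treated WT and at 51.8 to 56.3 CPM in treated R150X (log2 fold change -0.85, adjusted p = 6.66e-10), whereas Lyn (-0.085) did not pass. Inpp5d was lower, with a log2 fold change of -0.30 (adjusted p = 0.000201), as were Fcrls with -0.74 and the inhibitory receptor gene Pirb with -0.29. Malt1 was higher by 0.49, Clec7a by 0.28 and Tyrobp by 0.21 (adjusted p = 0.0425). The Tyrobp call was lost without any 1 of the treated libraries other than R150X replicate 1 (adjusted p = 0.0607 to 0.232). Ptpn6 (-0.073) and Fcgrt (0.0028) did not pass.

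In the interaction, 2 of the 111 genes were higher and 31 lower (1.80% and 27.9%), against 3.13% and 5.19% of all tested genes, with a median of -0.18 against -0.017. Of the 10 macrophage markers 0 were higher and 8 lower, with a median of -0.37, or 5 lower under library totals alone, and their part in the counts was not tested. Scaled by library totals alone, 6 were higher and 21 lower, and 66.5% of all calls were higher rather than 37.6%. The number higher was 1 without any 1 of the 3 untreated WT libraries, without replicate 1 or 3 of treated WT or without replicate 1 of treated R150X. Lower means that the log2 fold change with OxLDL was lower in R150X than in WT, which covers smaller rises, larger falls and changes in opposite directions. Tyrobp had an interaction of -0.44 (SE 0.0963, adjusted p = 0.00591), Ptpn6 of -0.30 and Fgr of -0.79 (adjusted p = 1.61e-06). Fgr did not pass with OxLDL in WT (90.7 ± 3.61 to 97.8 ± 5.37 CPM, log2 fold change 0.11, adjusted p = 0.114) and fell in R150X (87.2 ± 1.55 to 54.2 ± 2.29 CPM, -0.69, adjusted p = 2.39e-09). Under library totals alone Ptpn6 (adjusted p = 0.0590) did not pass. The gene with the smallest adjusted p of each other list was Clec7a at -0.69, Irf1 at -0.68, Dok2 at -0.60, Blnk at -0.55, Fcrls at -0.41, Lair1, a collagen receptor with ITIMs, at -0.38 and Myo1f at -0.37. Among these, Dok2 rose by 0.18 in WT and fell by 0.42 in R150X on the log2 scale. Lair1 rose by 0.21 in WT and fell by 0.18 in R150X. Neither rise in WT passed under library totals alone (adjusted p = 0.414 for Dok2 and 0.143 for Lair1). The Dok2 rise depended on single libraries as well. Its adjusted p was 0.0504 to 0.146 when replicate 1 or 2 of untreated WT, or replicate 1 or 3 of treated WT, was left out. The interaction of Lyn (-0.064), Inpp5d (-0.053) and Fcgrt (-0.00091) did not pass.

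The genes whose level most resembled that of a member over the 12 libraries were ranked by Pearson's r of log2 CPM, a description over libraries that share 4 groups. Fcgr1 was most like Fcrls (r = 0.999), Cxcl5 (0.997) and Timp1 (0.996), and Fcgr4 most like Ifi206 (0.992), Map3k8 (0.990) and Gbp6 (0.990). Fcgr3 was most like Rab7 (0.996), a GTPase of late endosomes, Rnf128 (0.995) and Itm2b (0.993). Fcgr2b was most like Chil3 (0.989), Inhba (0.988) and Fbln2 (0.987), Fcer1g most like H2-K1 (0.993), Cct6a (0.991) and Ran (0.985), and Syk most like Igf2bp2 (0.985), Tnfaip3 (0.977) and Pde1b (0.971). With Spearman's rank correlation in its place, 1 of the 3 names was retained for Fcgr3 (Itm2b) and for Syk (Igf2bp2) and 0 for the other members.

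Fcgr2b, Fcgr4, Fcgr3 and Fcer1g lie within 1 stretch of chromosome 1 and did not move together. In the region that extends 1 Mb to either side, 52 other genes were tested. In untreated cells 12 of these were higher and 9 lower in R150X, or 40.4% against 33.0% of all tested genes, and with OxLDL in WT 11 rose and 8 fell, or 36.5% against 45.8%. In R150X 10 rose and 12 fell with OxLDL, or 42.3% against 39.0%. With OxLDL 1 was higher and 5 lower in R150X, or 11.5% against 13.0%, and in the interaction 2 were higher and 4 lower, or 11.5% against 8.32%, and 3 genes in all without WT replicate 3. Fitted on the treated groups alone, 10 neighbours differed between the treated genotypes. Cd244a, an immune receptor of the SLAM family 540 kb from the start of Fcgr4, had the smallest adjusted p among neighbours in 4 of the comparisons, with log2 fold changes of -0.93 and -1.24 between genotypes and -1.82 and -2.13 with OxLDL. Cd84, another SLAM receptor gene, rose by 0.94 with OxLDL in WT and by 0.37 in untreated R150X.

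**Figure D5:**
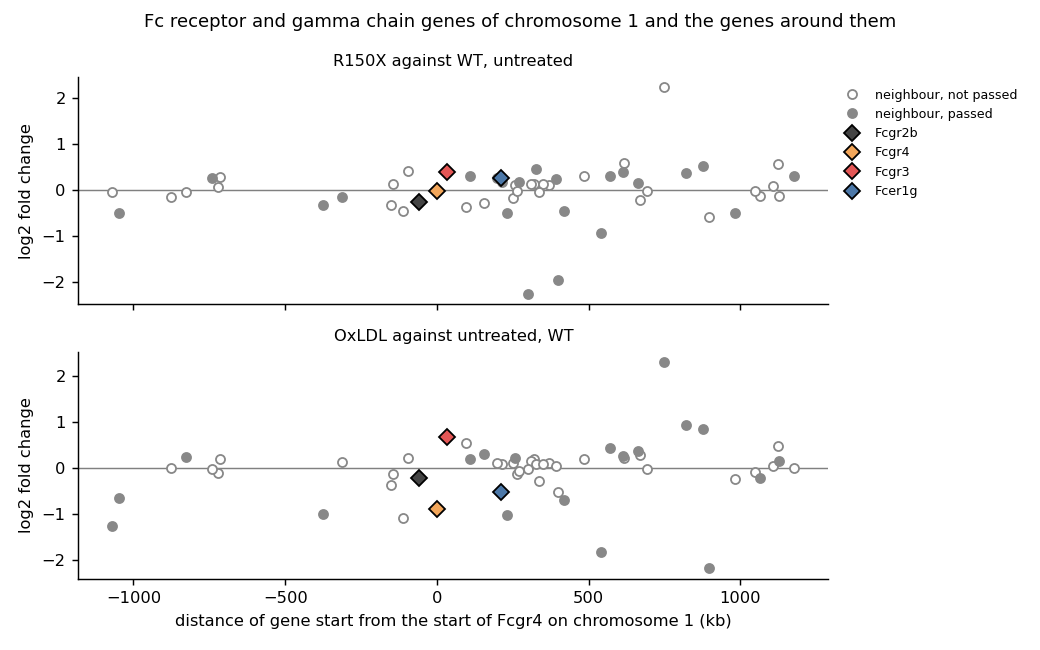
Log2 fold change (vertical axis) against the distance of a gene's start from that of Fcgr4 in kb (horizontal axis) for genes within 1 Mb of the cluster (grey filled: adjusted p under 0.05; open: not passed) and for the 3 receptor genes Fcgr2b, Fcgr4 and Fcgr3 and the chain gene Fcer1g (diamonds), between untreated genotypes (top) and with OxLDL in WT (bottom). In the lower panel Fcgr3 lies at 0.68 while Fcgr4, Fcer1g and Fcgr2b lie at -0.88, -0.52 and -0.21.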

How the data were processed

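Gene-level counts of 12 mouse BMDM libraries, deposited by the authors as raw whole-number counts per Ensembl gene, were used. The submitters' processing notes name FastQC, HISAT2, featureCounts, DESeq2, mm10 and GRCm38. Handling of multi-mapped reads, strand setting and annotation release are not given in the sources used here. Reads of antisense or near-identical genes therefore cannot be told apart. Symbols and positions came from GENCODE M21 (GRCm38), where 54495 of 54532 identifiers matched.

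Low counts were removed with filterByExpr by group, leaving 15338 genes. Libraries were scaled by TMM (factors 0.969 to 1.05), and edgeR 4.0.16 in R 4.3.3 was used to fit all 12 libraries together, 1 coefficient for each group (common biological coefficient of variation 0.0608). The 5 comparisons were tested with the quasi-likelihood test, adjusted by Benjamini-Hochberg over all genes tested, with a threshold of 0.05. "Rose" and "fell" are used of genes that passed. SE belongs to the fitted log2 fold change, intervals are 95%, and SD is over 3 libraries. Replicate libraries were compared by chi-square and none agreed within sampling noise. Transcripts were aligned with BLAST 2.17.0.

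The members and lists were chosen with earlier results of these data known. Named from a list were up to 4 genes with the smallest adjusted p per comparison, and Tyrobp, Inpp5d, Ptpn6, Lyn, Fgr and Fcgrt always. Some genes that this rule names are not reported here. From each member's likeness ranking, 3 genes were named (mean of at least 5 CPM, prior count 2). Alternatives were RLE factors, library totals alone, DESeq2 1.42.0, no filter, only the compared groups, a replicate block, no X or Y genes, each library left out, other gene lengths, ratios, likeness measure and windows. All columns of the table were used.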

Additional observations from a re-analysis of the deposited data

Results flagged for a closer look

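The response to OxLDL differed between the genotypes, by the interaction test of edgeR, for 3 of the 6 members and for the following 10 genes around them, among others. On the log2 scale, as the response in R150X minus that in WT, Fcgr1 had -0.35, Fcgr3 -0.36 and Syk -0.30. The Fcgr1 difference was a larger fall in R150X, the Fcgr3 difference a smaller rise and the Syk difference a larger fall. Fcrls had -0.41, Fgr -0.79, Blnk -0.55, Myo1f -0.37, Dok2 -0.60, Ptpn6 -0.30, Lair1 -0.38, Clec7a -0.69, Tyrobp -0.44 and Irf1 -0.68. In a fit scaled by library totals alone Syk (-0.21, adjusted p = 0.0687) and Ptpn6 (-0.21, adjusted p = 0.0590) no longer passed, while Fcgr1 (-0.25, adjusted p = 0.0263) and Fcgr3 (-0.27, adjusted p = 0.00820) still did.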

How the results depend on the processing

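In 70 refitted counts, 13 for each of 4 comparisons and 18 for the interaction, the number of members called stayed within 1.5 times the reported number in each comparison, and of 425 refitted member fold changes 420 kept their side of the threshold and, where called, their direction. The other 5, with the same direction but no longer past the threshold, were Fcer1g between treated genotypes without any 1 of 4 libraries (0.15 to 0.18) and Syk in the interaction under library totals alone (-0.21). The number of all genes called ranged from 3878 to 5355 and from 1426 to 2169 between untreated and treated genotypes, from 6065 to 7442 and from 5024 to 6209 with OxLDL in WT and R150X, and from 893 to 1512 in the interaction. The causes were not tested. The labels do not say whether replicate numbers pair the samples, and the correlation of deviations from group means could not settle it. Of 18 same-numbered pairs 6 had a correlation over 0.1, with a range from -0.12 to 0.22, and 9 correlated best with their own number. Between the treated genotypes the same-numbered pairs had 0.12, 0.082 and 0.22, each higher than with another number. With the replicate block 5, 3, 6, 6 and 3 members were called in the 5 comparisons, as without it, and 5355, 2164, 7190, 6209 and 1491 genes in all. Counts of genes within a list were less stable, since 110 of 1260 refitted counts of genes that rose or fell moved by over 1.5 times. At this depth a floor of 3 counts is 0.158 to 0.209 CPM, far under all 6 members.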
